A study of Cavia porcellus with 72 samples.

Results

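The genes described here are those whose symbols begin with ZNF or ZBTB followed by a digit, without ZBTB16, in 3 tables of RNA-seq read counts from the female guinea pig hippocampus. This rule found 160 genes, 127 named ZNF and 33 named ZBTB, among 11927 genes listed in any table. The F1, F2 and F3 tables held 154, 159 and 154 of them, out of 11651, 11716 and 11663 genes, and 153 were in all 3 tables. Pregnant Dunkin-Hartley guinea pigs (F0) were given 1 mg/kg of the synthetic glucocorticoid betamethasone (sGC) or saline (control) in 3 courses, on gestational days 40 and 41, 50 and 51, and 60 and 61. F1 animals were exposed as fetuses. F1 males and then F2 males were mated with untreated females, so F2 and F3 descend through the paternal line and were not treated themselves. All animals measured were females at postnatal day 40, with 6 controls and 5 sGC in F1, 6 and 6 in F2, and 6 controls and 7 sGC in F3. The main comparisons asked how the hippocampus of sGC animals differed from that of controls of the same generation. Interactions asked whether this difference changed between generations.

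Zinc finger proteins with C2H2 fingers bind DNA through arrays of small domains that each read a few bases, and they form the largest family of transcription factors in mammals. Many ZNF proteins also carry a KRAB domain, which recruits the corepressor TRIM28 and the histone methyltransferase SETDB1. ZBTB proteins join a BTB domain to the fingers and use it to pair with each other and to bind the NCOR and BCOR corepressors or the ubiquitin ligase scaffold CUL3. In the hippocampus and cortex, members of these groups are known for roles in neuron production, chromatin silencing and the reading of methylated DNA. The name rule also takes in proteins that act on RNA, and ZBTB8OS, which is named for lying opposite a ZBTB gene and is not a zinc finger gene itself.

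The 36 libraries held between 13507449 and 19767033 counted reads each, and levels are given in counts per 1e+06 reads (CPM). A CPM value depends on transcript length, so levels were compared between animals and not between genes. In F1 and F3, 153 of the 154 listed genes had enough reads to be tested and in F2 all 159 did. ZBTB37 was the gene left out, with 6 to 16 reads per library in F1 and 3 to 14 in F3. The hippocampal excitatory neuron markers, among them PROX1, CAMK2A and SLC17A7, were all 6 present and tested in each generation. In F1, 2 of them were above 0 and 4 below, and 0 were called. At an unadjusted p below 0.05 stood 2 higher and 1 lower. Their sums ran from 9300 to 10379 CPM in F1 controls and from 9417 to 11900 CPM in F1 sGC animals. The astrocyte marker list, 6 genes that include AQP4 and GFAP, differed between groups. Its summed level ran from 6469 to 8488 CPM in F1 controls and was 7500, 8312, 8267, 12184 and 9989 CPM in F1 sGC animals 1 to 5, and it ran from 7137 to 7800 CPM in F3 controls and from 7961 to 9632 CPM in F3 sGC animals. In F1, 0 of these 6 genes passed the test by edgeR with all 6 above 0 and 4 at an unadjusted p below 0.05. In F2, all 6 were above 0, 3 at an unadjusted p below 0.05, and 0 passed. In F3, all 6 were above 0 and all 6 at an unadjusted p below 0.05, and 1 passed. The meningeal list of 6 genes summed to between 82.0 and 228 CPM in F1 controls and between 53.95 and 111 CPM in F1 sGC animals, where 2 genes were called lower. In F3 all 6 were above 0, 2 at an unadjusted p below 0.05, and 0 were called. The choroid plexus list, with 3 of 6 genes tested in F2, varied widely there. Its sums ran from 9.14 to 477 CPM in F2 controls and from 6.72 to 684 CPM in F2 sGC animals. In F1 and F3 only FOLR1 of this list was listed and tested, so the same sum could not be formed for them. The oligodendrocyte list had 3 of 6 genes tested in F1 (MOG, MAG and CNP), all below 0, 2 of them at an unadjusted p below 0.05, and its sums ran from 1016 to 1396 CPM in controls and from 885 to 1262 CPM in sGC animals. Of the microglia list, 5 of 6 genes were tested in F1, 4 above 0 and 3 at an unadjusted p below 0.05, with sums from 179 to 227 CPM in controls and from 213 to 296 CPM in sGC animals. No gene of the oligodendrocyte or microglia list passed the test by edgeR in F1. In bulk tissue, fewer cells of a type and less RNA per cell cannot be told apart, and the part of cell composition in the results below was not tested. Sample numbers 32 to 36 belonged to sGC animals alone (sGC animals 4 and 5 of F1, 6 of F2, and 5 and 6 of F3), so whatever these numbers stand for cannot be told apart from treatment in those animals.

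In F1, 6 of the 153 tested ZNF and ZBTB genes passed the threshold of an adjusted p below 0.05, and all 6 were higher in sGC animals. Among all 11377 genes tested, 2.08% passed, 1.63% in the higher and 0.457% in the lower direction. The 6 genes were ZNF106, ZBTB41, ZBTB44, ZNF292, ZNF704 and ZNF462. The changes were small, with log2 fold changes between 0.20 and 0.39. The family as a whole also leaned upward, with 66.7% of the 153 genes at a log2 fold change above 0 and 51 genes below it, against 48.3% of all genes above 0. The median log2 fold change was 0.04 in the family and -0.01 in all genes. At an unadjusted p below 0.05 there were 23 members, where 19.6% of all genes stood. Of these, 19 were higher and 4 lower, where 10.5% and 9.06% of all genes stood in these directions.

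The upward lean in F1 was seen at every level of expression. When all tested genes were divided into 3 equal groups by mean CPM, log2 fold changes above 0 were held by 60% of members in the lowest group, 68.8% in the middle group and 76.2% in the highest group. The shares of all genes were 47.6%, 47.0% and 50.3%. Summed over the 153 genes, the F1 control libraries ran from 5787 to 5868 CPM and the F1 sGC libraries from 6026 to 6187 CPM, and the groups did not overlap. Such a sum is weighted towards the genes with the most reads. A measure that weights all members alike, the median deviation of a library from the control mean, ran from -0.0159 to 0.0193 in F1 controls and from 0.0176 to 0.0610 in F1 sGC animals on the log2 scale. On this measure the groups overlapped, since sGC animal 5 lay below control 1.

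**Figure D1:**
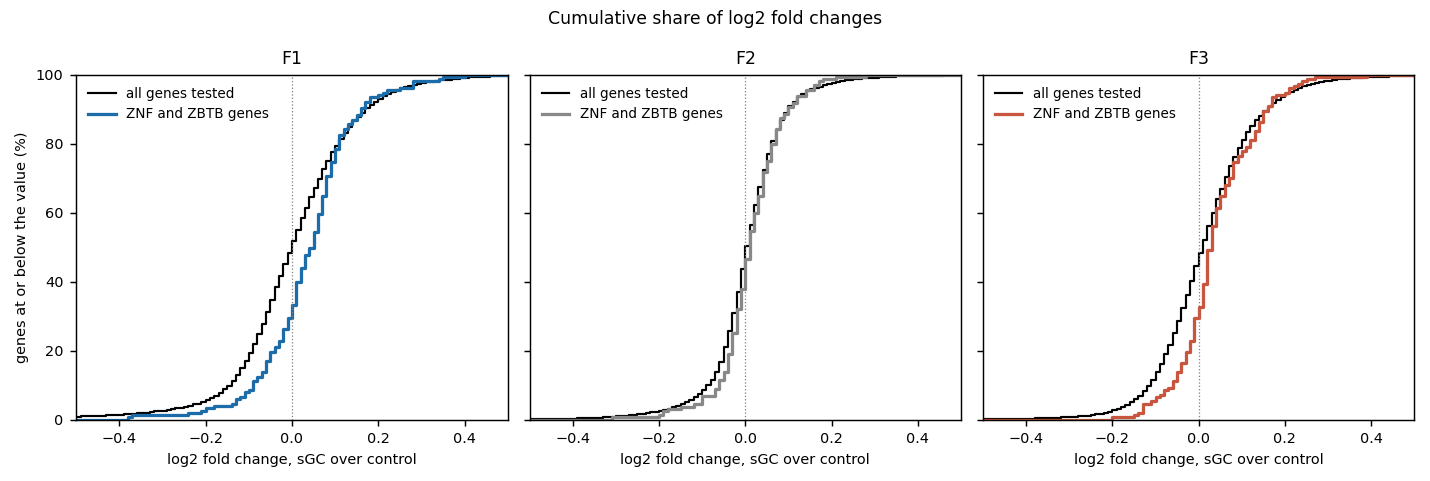
Cumulative share of genes (y axis, percent) at or below each log2 fold change of sGC over control (x axis) in F1, F2 and F3, for ZNF and ZBTB genes (coloured) and all genes tested (black). At 0 the coloured curve lies below the black curve in F1 and F3, where 66.7% and 67.3% of members lay above 0 against 48.3% and 51.7% of all genes, and the curves nearly meet in F2.

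ZNF106 encodes a zinc finger protein that binds RNA. Its level in the F1 control libraries had a lowest value of 172, a median of 174 and a highest value of 187.02 CPM. The F1 sGC animals had 195.7, 206, 214, 234 and 225 CPM, so every sGC animal lay above every control. The log2 fold change was 0.28 (SE 0.05, edgeR quasi-likelihood adjusted p = 0.0165), from means of 177 ± 7.45 (SD, n = 6) and 215 ± 15.3 CPM (SD, n = 5).

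ZBTB41 gave the largest fold change of the 6 genes and was measured at few reads. Control libraries ran from 6.95 through a median of 7.48 to 8.12 CPM. In sGC animals the values were 9.55, 9.13, 9.23, 11.6 and 10.02 CPM, again with no overlap. Its log2 fold change was 0.39 (SE 0.08, adjusted p = 0.0309).

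ZNF292, a gene in which loss of 1 copy causes a neurodevelopmental disorder, separated the groups as well. Its control values had a lowest of 30.9, a median of 34.7 and a highest of 34.98 CPM. The sGC animals had 38.7, 40.6, 38.7, 38.2 and 45.1 CPM. The log2 fold change was 0.25 (SE 0.05, adjusted p = 0.0330). ZNF462, whose loss is likewise tied to a developmental disorder, had control values from 48.8 through a median of 50.6 to 56.1 CPM. Its sGC values were 58.3, 55.2, 63.1, 59.0 and 59.96 CPM, and sGC animal 2 lay inside the control range. The log2 fold change of ZNF462 was 0.20 (SE 0.05, adjusted p = 0.0454).

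ZBTB44 and ZNF704 were the genes that returned in F3. In F1, ZBTB44 had control values from 90.5 through a median of 98.2 to 101.8 CPM, and sGC values of 101.5, 113, 113, 122 and 117 CPM. The lowest sGC animal lay just under the highest control, and the log2 fold change was 0.22 (SE 0.05, adjusted p = 0.0330). ZNF704 had control values from 101.6 through a median of 107 to 123 CPM, and sGC values of 124, 134, 118, 161 and 149.8 CPM. All but sGC animal 3 lay above the controls, and the log2 fold change was 0.34 (SE 0.08, adjusted p = 0.0399).

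In ZNF106, ZBTB41, ZBTB44 and ZNF704 the highest of the F1 sGC values belonged to sGC animals 4 and 5, the animals with sample numbers 35 and 32 and with the highest astrocyte sums. These animals also had the highest F1 sums of the excitatory neuron list (11900 and 11004 CPM) and the microglia list (296 and 240 CPM). The same held for the endothelium marker list (412 and 385 CPM). Their oligodendrocyte sums, 943 and 885 CPM, lay below every F1 control, as did those of sGC animals 2 and 3 (901 and 955 CPM). Without sGC animals 4 and 5, 1 of the 6 genes was called, ZNF106 (log2 fold change 0.21, adjusted p = 0.0476). The other 5 had log2 fold changes between 0.17 and 0.31 with adjusted p between 0.0665 and 0.0981, and ZNF704 moved the most, from 0.34 to 0.21. Over 11 fits that each left out 1 library, ZNF106 passed in 10, missing at an adjusted p of 0.05004 without sGC animal 5, and the others passed in 3 to 5. Groups without overlap were found in 5 genes in the higher direction, ZBTB25, ZBTB41, ZNF106, ZNF292 and ZNF652, where 2.45% of all genes stood, and in the lower direction in ZNF428, where 1.96% stood. ZBTB25 and ZNF428 are named for this count, after their values were seen.

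**Figure D2:**
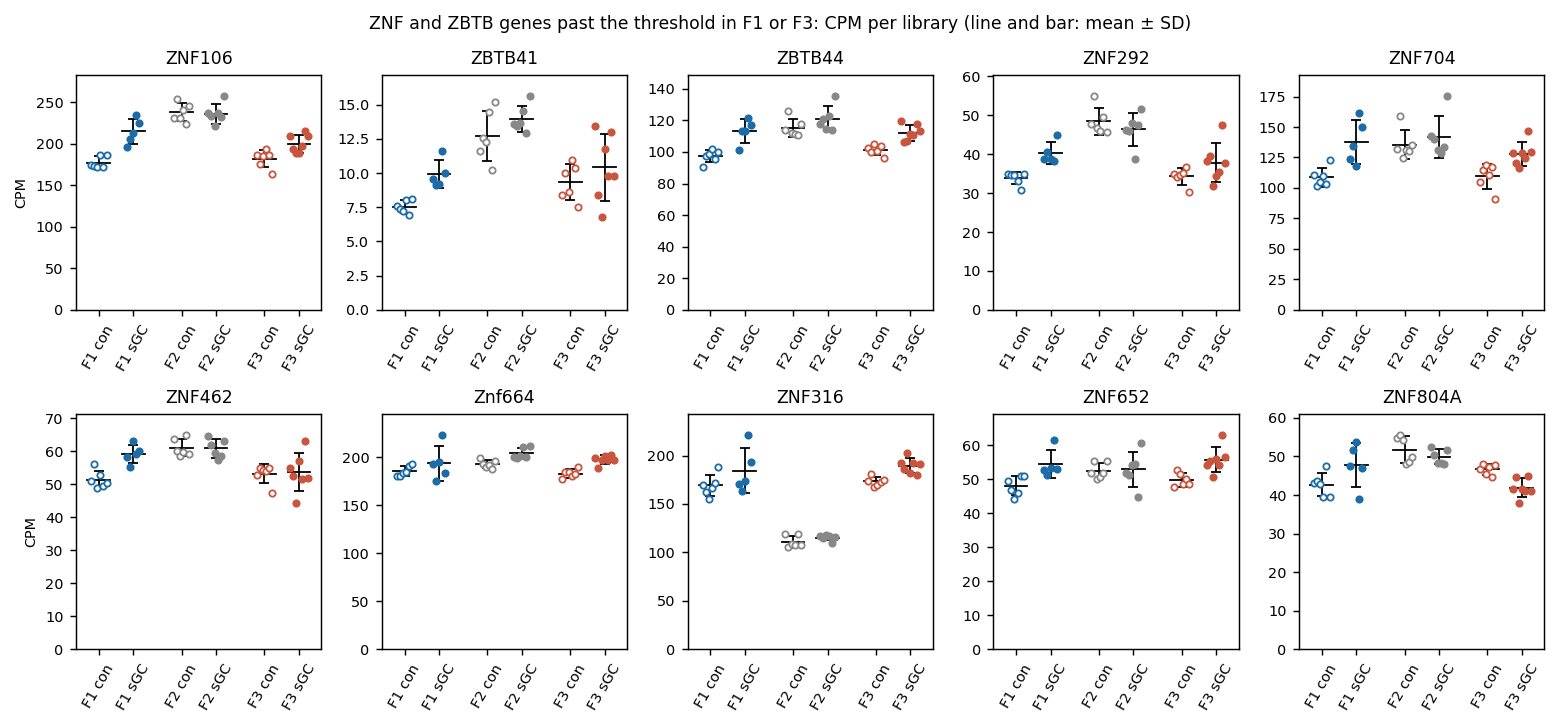
Level in CPM (y axis, linear and from 0) of the 10 ZNF and ZBTB genes called in F1 or F3, by group (x axis; con, control), with open points for control libraries, filled points for sGC libraries, and lines and bars for mean ± SD. ZNF106, ZBTB41, ZNF292 and ZNF652 show no overlap in F1, Znf664 shows none in F2, ZBTB44 shows none in F3, and ZNF316 sits lower in the F2 table (control mean 111 CPM) than in F1 (169 CPM) or F3 (173.3 CPM), each table being scaled on its own.

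In F2, the offspring of exposed males, no ZNF or ZBTB gene passed the threshold, and neither did any of the 11414 genes tested (0% called), by edgeR's quasi-likelihood test. The likelihood ratio test and DESeq2 also called 0 members. At an unadjusted p below 0.05 there were 12 members, 8 higher and 4 lower, where 6.64% of all genes stood, 3.74% higher and 2.90% lower. The family did not lean far from all genes, with 85 of 159 (53.5%) above 0 against 49.7%, and a median log2 fold change of 0.01 against 0.00.

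The 3 F2 members with the smallest unadjusted p were ZNF518A, Znf664 (spelled so in the tables) and ZNF3. ZNF518A encodes a partner of the histone methyltransferases G9a and GLP. Its control values ran from 10.5 through a median of 10.7 to 12.6 CPM and its sGC values from 8.99 through 9.62 to 10.9 CPM, which overlapped (log2 fold change -0.20, SE 0.07, adjusted p = 0.678). Znf664 ran from 188.1 through 193 to 199.6 CPM in controls and from 199.7 through 201 to 212 CPM in sGC animals. These groups touched without overlapping, as in 0.219% of all genes in the higher direction, with a log2 fold change of 0.08 (SE 0.03, adjusted p = 0.678). ZNF3 ran from 20.03 through 21.5 to 25.5 CPM in controls and from 16.7 through 18.8 to 22.6 CPM in sGC animals (log2 fold change -0.20, SE 0.07, adjusted p = 0.70).

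In F3, 6 of 153 tested members passed, 5 higher and 1 lower in sGC animals, where 5.04% of all 11359 genes passed, 2.17% higher and 2.87% lower. The higher genes were ZBTB44, Znf664, ZNF316, ZNF704 and ZNF652, and the lower gene was ZNF804A. The share of members called, 6 of 153, was thus no greater than that of all genes. The upward lean returned, with 103 of the 153 (67.3%) above 0 against 51.7% of all genes, at a median log2 fold change of 0.02 against 0.00. At an unadjusted p below 0.05 there were 24 members, where 21.1% of all genes stood. Of these, 19 were higher and 5 lower, where 10.3% and 10.8% of all genes stood. By level, 70.9%, 64.9% and 66.7% of members in the lowest, middle and highest groups of mean CPM were above 0, against 59.3%, 51.3% and 44.7% of all genes. The summed level of the 153 genes ran from 5839.95 to 6039 CPM in controls and from 5878 to 6195 CPM in sGC animals, and these ranges overlapped. The median deviation from the control mean ran from -0.0224 to 0.0349 in F3 controls and from -0.0351 to 0.0598 in F3 sGC animals on the log2 scale, with sGC animal 3 below every control.

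ZBTB44 was the F3 member with the smallest adjusted p. Its control values ran from 95.9 through a median of 101.8 to 105 CPM, and its sGC values from 106 through 111 to 119 CPM. The groups did not overlap, as in 0.836% of all genes in the higher direction, and the log2 fold change was 0.15 (SE 0.04, adjusted p = 0.0227). ZNF704 ran from 91.1 through 113 to 119 CPM in controls and from 116 through 129 to 146.9 CPM in sGC animals. All 7 sGC animals were above the control mean of 109 ± 10.3 CPM (SD, n = 6), and the log2 fold change was 0.23 (SE 0.06, adjusted p = 0.0397).

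The other 3 genes higher in F3 were not called in F1. Znf664 had control values from 177 through 183 to 189.6 CPM and sGC values from 189 through 197 to 202 CPM, and only the lowest sGC animal lay in the control range (log2 fold change 0.11, SE 0.03, adjusted p = 0.0274). ZNF316 ran from 167 through 173.4 to 180.7 CPM in controls and from 179.6 through 191.4 to 203 CPM in sGC animals (log2 fold change 0.13, SE 0.03, adjusted p = 0.0308). ZNF652 encodes a DNA-binding repressor that works with the corepressor CBFA2T3. It ran from 47.6 through 49.3 to 52.8 CPM in controls and from 50.8 through 55.3 to 62.9 CPM in sGC animals (log2 fold change 0.16, SE 0.05, adjusted p = 0.0479). In F1 the log2 fold changes of Znf664, ZNF316 and ZNF652 were 0.06, 0.12 and 0.18, with adjusted p of 0.553, 0.363 and 0.104.

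ZNF804A, a gene expressed in neurons and associated with schizophrenia, was the only called member lower in sGC animals. Its F3 control values ran from 44.6 through a median of 47.1 to 48.1 CPM, and its sGC values from 38.0 through 41.5 to 45.1 CPM. All 7 sGC animals lay below the control mean, with 2 of them inside the control range. No member had groups without overlap in the lower direction, where 1.88% of all genes stood. The log2 fold change was -0.15 (SE 0.04, adjusted p = 0.0416). In F1 the same gene had control values from 39.5 through 43.1 to 47.6 CPM and sGC values of 47.5, 51.8, 53.9, 39.0 and 47.1 CPM. There 4 of 5 sGC animals were above the control mean and the log2 fold change was 0.16 (SE 0.08, adjusted p = 0.247).

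Without sGC animals 5 and 6 of F3, sample numbers 36 and 34, 1 of the 6 genes was called, ZNF316 (log2 fold change 0.14, adjusted p = 0.0478). The other 5 kept their directions at adjusted p between 0.0620 and 0.126. Of 13 fits that each left out 1 library, ZBTB44 passed in 12, missing at an adjusted p of 0.0503 without control 2, and the others passed in 2 to 7. The F3 astrocyte sums did not overlap between groups, and they were higher in the sGC animals.

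Of the 153 members tested in F1 and F3, 73 (47.7%) were above 0 in both, against 31% of all genes, and 21 were below 0 in both. These generations share no animals. ZBTB44 and ZNF704 were called in both, as were 10 of 11334 genes (0.0882%). Across the members, F1 and F3 log2 fold changes had a Pearson r of 0.27 and a Spearman rho of 0.26, and across all genes 0.19 and 0.30. Genes are not independent replicates, and each member's F1 and F3 values come from separate animals. Of the 23 members at an unadjusted p below 0.05 in F1, 18 (78.3%) had the same sign in F3, close to the 74.0% of all genes chosen in the same way. Of the 24 members chosen so in F3, 17 (70.8%) had the same sign in F1, where 76.8% of all genes did. At an unadjusted p below 0.05 in F1 and in F3 stood 7 members (4.58%), near the 4.74% of all genes. ZBTB44, ZNF704, ZNF106, ZNF652 and ZNF446 were higher in both, ZNF622 was lower in both, and ZNF804A stood on opposite sides. ZNF446 is named for this count, after its values were seen.

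**Figure D3:**
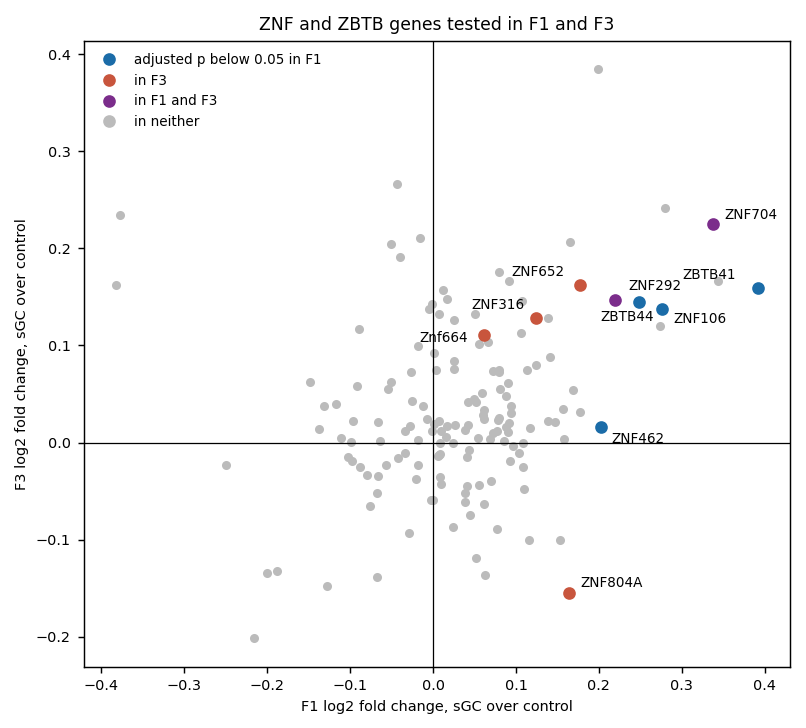
Log2 fold change of sGC over control in F1 (x axis) and F3 (y axis) for the 153 ZNF and ZBTB genes tested in both, coloured by the generation in which they passed the threshold. The upper right quadrant holds 73 genes, with ZBTB44 and ZNF704 called in both generations, and ZNF804A lies alone among called genes below 0 in F3.

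With F2 added, 42 of 152 members (27.6%) were above 0 in all 3 generations, against 17.3% of all genes, and 15 were below 0 in all 3. Across the members, r was 0.18 and rho 0.06 between F1 and F2, and 0.05 and 0.17 between F2 and F3. Across all genes, r was -0.01 and rho -0.02 between F1 and F2, and 0.09 and 0.15 between F2 and F3. Whether an sGC difference itself changed between generations was tested as an interaction over all 36 libraries. In F2 minus F1, 1 member passed, ZNF106, where 0.290% of all genes passed, and 23 members stood at an unadjusted p below 0.05, where 16.8% of all genes did. Its F2 values ran from 224 through 236 to 254 CPM in controls and from 221.5 through 235 to 258 CPM in sGC animals, and its log2 fold change of 0.28 in F1 was -0.01 in F2. The difference was -0.29 (SE 0.06, adjusted p = 0.0302). ZNF106 passed in 24 of 36 fits that each left out 1 library. All 13 fits without an F3 library passed, but F3 libraries do not enter this difference. Every fit that missed had left out an F1 or F2 library. Without sample numbers 32 to 36 the ZNF106 difference was -0.24 with an adjusted p of 0.0523, and ZNF804A was the member that passed (-0.31, adjusted p = 0.0408).

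No member passed in F3 minus F1 or in F3 minus F2, where 0% of all genes passed by the quasi-likelihood test. At an unadjusted p below 0.05 stood 14 and 11 members in these contrasts, and 13.1% and 9.08% of all genes. In F3, ZNF106 ran from 164 through 186 to 193.5 CPM in controls and from 189 through 197 to 215 CPM in sGC animals, with a log2 fold change of 0.14 (SE 0.04, adjusted p = 0.0726). ZNF804A came nearest to the threshold in F3 minus F1, with a difference of -0.33 (SE 0.08, adjusted p = 0.0738). The likelihood ratio test and DESeq2 called it, at adjusted p of 0.0251 and 0.0205. Fitted with the F1 and F3 libraries alone, its adjusted p was 0.204, and without sample numbers 32 to 36 it was 0.00380, where the difference was -0.43 and ZBTB11 also passed (-0.29, adjusted p = 0.0112). A difference between F1 and F3 was not shown for the other genes called in a single one of these generations. For example, ZNF462 had log2 fold changes of 0.20 in F1 and 0.02 in F3, and the difference of -0.19 (SE 0.08) had an adjusted p of 0.269.

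**Figure D4:**
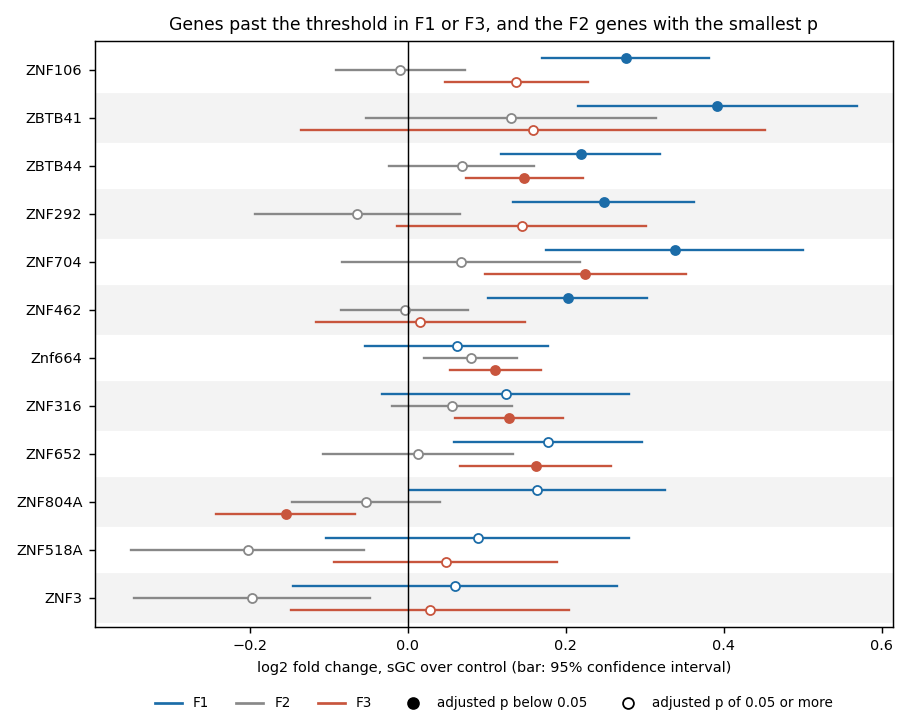
Log2 fold change of sGC over control (x axis) with its 95% confidence interval for the genes called in F1 or F3 and the 3 F2 genes with the smallest unadjusted p (y axis), by generation, with filled points where the adjusted p was below 0.05. ZBTB44 and ZNF704 are filled in F1 and F3, the F2 point of ZNF106 lies near 0 (-0.01), and ZNF804A has points on both sides of 0.

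Of the ZBTB genes, 22 of 31 in F1, 20 of 33 in F2 and 21 of 31 in F3 were above 0, as were 48.3%, 49.7% and 51.7% of all genes. Their median log2 fold changes were 0.02, 0.02 and 0.06, and those of the ZNF genes were 0.04, 0.00 and 0.02. The difference between ZBTB and ZNF genes was not tested. They held 2 of the 6 calls in F1, ZBTB41 and ZBTB44, and 1 of the 6 in F3, ZBTB44. ZBTB33 and ZBTB4 encode proteins that bind methylated CpG sites. Neither passed in any generation. ZBTB4 had log2 fold changes of 0.11, 0.04 and 0.07 in F1, F2 and F3 and adjusted p of 0.282, 0.811 and 0.160, and those of ZBTB33 were 0.02, 0.05 and 0.01. ZBTB18, a repressor needed for the formation of cortical and hippocampal neurons, was measured at 352 ± 23.2 and 366 ± 24.6 CPM in F1 controls and sGC animals and at 373 ± 5.71 and 362 ± 28.1 CPM in F3, and its log2 fold changes of 0.06 and -0.04 were within the spread of the animals. ZBTB17 (MIZ1, a partner of MYC) and ZBTB24 (mutated in ICF syndrome, in which DNA methylation is lost at repeats) did not pass either, with log2 fold changes between -0.07 and 0.07 in the 3 generations.

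Of 30 members listed for a known role, 25 were present in the tables, and ZBTB20, ZBTB38, ZNF207, ZNF274 and ZNF445 were not analysed here. Apart from ZNF292, ZNF462 and ZNF804A, the other 22 passed in no generation. ZNF148, a factor of GC-rich promoters, came nearest, at 62.2 ± 1.63 and 68.9 ± 2.94 CPM in F1 (log2 fold change 0.15, SE 0.04, adjusted p = 0.0657), and its log2 fold changes were -0.01 in F2 and 0.02 in F3. ZNF622, which serves in the maturation of the large ribosomal subunit, had log2 fold changes of -0.20 in F1 (adjusted p = 0.136) and -0.13 in F3 (adjusted p = 0.0736). ZNF143, an activator of small nuclear RNA genes and many promoters, had log2 fold changes of -0.06, -0.01 and -0.02, and its relative ZNF76 had 0.05, -0.11 and 0.10. ZNF598, the ligase that marks collided ribosomes, had 0.02, 0.04 and 0.00.

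**Figure D5:**
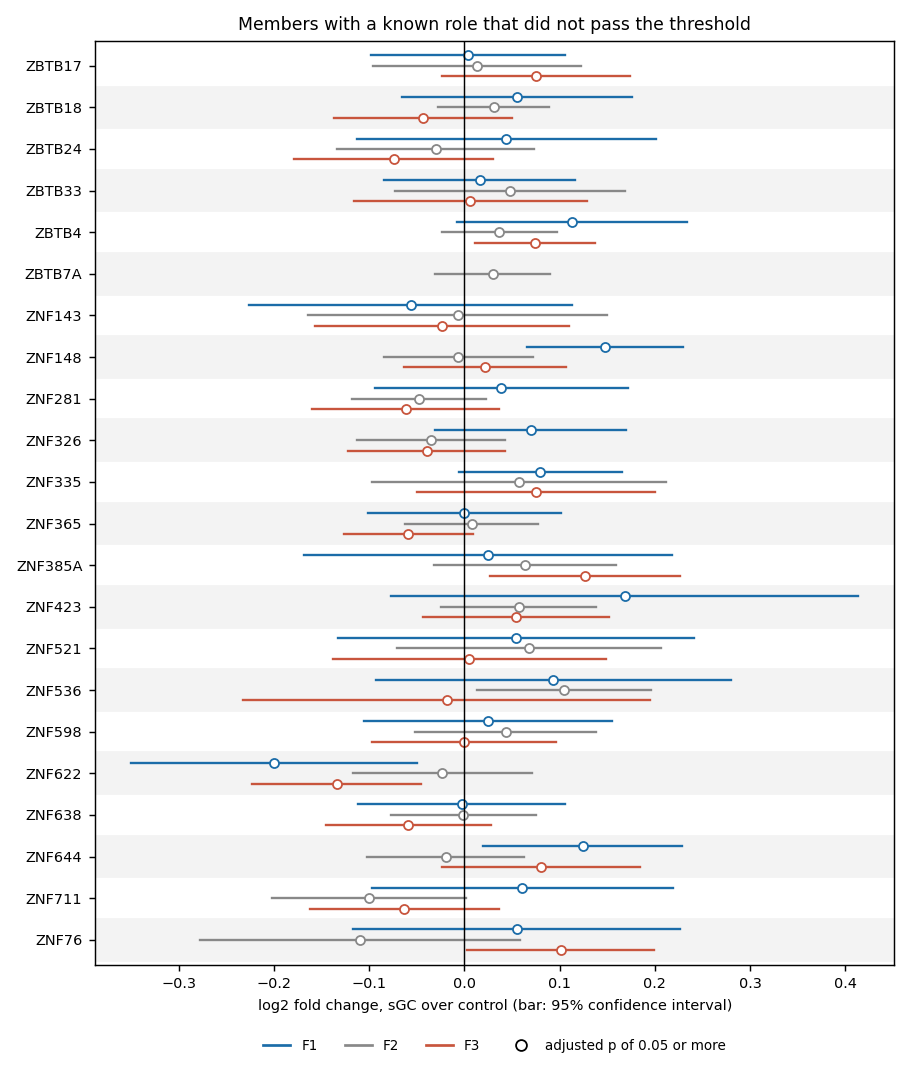
Log2 fold change of sGC over control (x axis) with its 95% confidence interval for the 22 members with a known role that did not pass the threshold (y axis), by generation. ZBTB7A was in the F2 table alone, and ZNF622 has F1 and F3 intervals wholly below 0 at adjusted p of 0.136 and 0.0736.

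The lists by function are small, and are read against all genes tested, of which 48.3%, 49.7% and 51.7% were above 0 and 2.08%, 0% and 5.04% passed in F1, F2 and F3. Of the 11 genes listed for neuronal development, 10 were tested. In F1, 9 were above 0 and 2 passed, ZNF292 and ZNF462, both higher. In F2, 6 were above 0 and none passed, with 1 at an unadjusted p below 0.05. In F3, 5 were above 0 and 5 below, and ZNF804A passed as lower. Of 11 tested genes for ribosome, RNA and spindle proteins, 6, 4 and 6 were above 0 in F1, F2 and F3, and ZNF106 in F1 was the only call. The partners of G9a and GLP had 3 of 6 listed genes tested, EHMT2 (G9a), ZNF518A and ZNF644, with no call. ZNF644 had log2 fold changes of 0.12, -0.02 and 0.08. The 4 genes of the Z3 complex and its relatives, ZNF592, ZNF687, ZNF532 and ZMYND8, gave no call, with log2 fold changes from -0.05 to 0.11.

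Of 24 listed corepressor genes that KRAB and BTB proteins work with, 21 were tested. In F1, F2 and F3, 8, 8 and 10 of these were above 0 (48.3%, 49.7% and 51.7% of all genes), and 1, 0 and 1 passed (2.08%, 0% and 5.04% of all genes). ATF7IP, which stabilises SETDB1, was higher in F1 (41.8 ± 1.89 against 48.2 ± 1.56 CPM, log2 fold change 0.21, adjusted p = 0.0300), and had an adjusted p of 0.0813 without sample numbers 32 to 36. CHD3, a remodeller of the NuRD complex, was higher in F3 (579 ± 25.7 against 657 ± 30.1 CPM, log2 fold change 0.18, adjusted p = 0.0111) and also without them (adjusted p = 0.0345). Among C2H2 zinc finger genes with other names, 28 of 50 were above 0 in F1, 29 of 50 in F2 and 40 of 49 in F3. In F1, ZFHX4 was higher (7.32 ± 0.43 against 11.0 ± 0.74 CPM, log2 fold change 0.58, adjusted p = 0.00212) and ZFP57, a KRAB protein that keeps methylation at imprinted loci, was lower (40.96 ± 6.04 against 26.5 ± 4.68 CPM, log2 fold change -0.63, adjusted p = 0.0184). Without sample numbers 32 to 36 these had adjusted p of 0.0106 and 0.0643. In F3, GLI3 and ZSCAN29 were higher, with log2 fold changes of 0.23 and 0.31 and adjusted p of 0.0455 and 0.0267, and of 0.133 and 0.0982 without those animals.

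Among control animals, the members varied about as much as other genes did. The median coefficient of variation over control libraries was 6.05%, 6.05% and 6.25% for members in F1, F2 and F3, and 6.32%, 6.00% and 7.05% for all genes. It was not computed for the sGC groups. Most members were measured at moderate depth, with a median of 431 mean reads per library in F1 and a range from 20 (ZNF804B) to 6115 (ZBTB18). The most extreme log2 fold changes belonged in part to genes with few reads, such as ZNF488 in F1 (-0.38, SE 0.17, 47.4 mean reads, adjusted p = 0.237) and ZBTB7C in F3 (0.38, SE 0.16, 43.9 mean reads, adjusted p = 0.165), both named after their values were seen.

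The F2 table stood apart from the others in its levels, and generation and table cannot be told apart. The first principal component held 68.4% of the variance, with F2 libraries between 37.7 and 40.7 and F1 and F3 libraries between -21.6 and -17.7. Control means in F2 differed from F1 by more than 2-fold for 3.85% of genes and for 6 of 153 members, and those in F3 differed from F1 by as much for 0.0263% of genes and 0 members. ZNF3 was at 10.8 CPM in F1, 21.8 in F2 and 11.2 in F3 controls on this common scale, and ZBTB37 at 0.66, 6.02 and 0.40 CPM. The sGC and control libraries within F2 shared this shift. Every log2 fold change set sGC libraries against controls from the same table. The interactions then compared these values across tables, so a change between generations cannot be told apart from one between tables. ZNF106, the member called in F2 minus F1, stood at 181.5 CPM in F1 and 235.6 CPM in F2 controls on the common scale. The part of the table in that call was not tested.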

How the data were processed

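RNA-seq of 36 hippocampi was used. The deposited values were read counts of each gene in every library, not normalized by the authors, from single reads of 51 bases. The submitters' processing notes name TopHat2 and edgeR. The genome build and the counting tool for these counts are not given in the sources used here, and the TruSeq V2 kit does not mark strand, so overlapping and antisense genes may share reads, as may near-identical zinc finger genes. Columns of the authors' own comparisons (dispersion, fold change, average level, likelihood ratio, p-value and FDR) and the methylation tables, which hold only such comparisons, were not used.

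Within each generation, genes were filtered by filterByExpr, scaled by TMM and tested for sGC against control with edgeR 4.0.16 (quasi-likelihood) in R 4.3.3, with Benjamini-Hochberg adjustment over all genes tested and a threshold of 0.05. Log2 fold changes come from this fit. CPM are per 1e+06 reads, scaled by TMM. Interactions were fitted over all 36 libraries and genes in all 3 tables. Principal components and the levels compared between generations used the common scale of that fit. Figures were drawn with matplotlib 3.10.9. The method was tested on simulated data. Alternatives were the likelihood ratio test, DESeq2 1.42.0, its size factors, other count filters, a joint fit, a replicate block, and leaving out libraries. The ZNF and ZBTB genes and the gene lists were chosen with earlier results of these data known. Named genes were those past the threshold (at most 12 in each direction per generation), the 3 with the smallest p where none passed, those past it in an interaction, and those listed for a known role. By symbol, 155 of 160 genes matched RefSeq (assembly mCavPor4.1). The study's methods say that each female had a different mother, so replicates were separate animals from separate litters.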

Additional observations from a re-analysis of the deposited data

Results flagged for a closer look

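The 12 genes whose values per library are given above were screened for single libraries far from the rest of their group, in 72 groups of 5 to 7 libraries. This screen marks about 1 group in 20 by chance, and it marked 5. ZNF652 in F1 sGC animal 4 stood at 61.6 CPM, above the next value of 53.2. ZNF704 in F2 control 2 stood at 159 CPM, where the next was 136, and in F2 sGC animal 6 at 175.5 CPM, where the next was 142.9. ZNF462 in F3 control 6 stood at 47.4 CPM, below the next value of 52.8. Znf664 in F3 sGC animal 2 stood at 189 CPM, below the next value of 197. The sGC difference of ZNF106 differed between F2 and F1 by the interaction test, with a difference of log2 fold changes of -0.29 (edgeR quasi-likelihood adjusted p = 0.0302). No cause of these values was tested.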

How the results depend on the processing

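The number of members above 0 and the median log2 fold change kept their values closely in every alternative: 100 to 107, 80 to 85 and 98 to 106 members in F1, F2 and F3 over 8 alternatives, and 92 to 109, 80 to 93 and 96 to 107 with 1 library left out, where medians ran from 0.03 to 0.05, 0.00 to 0.01 and 0.02 to 0.03. The number of called members depended on the fit. In F1 it was 12 (the 6 and 6 others) in the joint fit of all generations, 1 without sample numbers 32 to 36, and between 0 (without sGC 5) and 8 (without sGC 4) with 1 library left out. Each control left out gave 1 to 3, sGC 1 gave 5, and sGC 2 and 3 gave 3 each. The likelihood ratio test called 8 and DESeq2 9. In F3 it was 10 with DESeq2, 1 in the joint fit (ZBTB44), 1 without sample numbers 32 to 36, and between 1 (without control 4 or sGC 5) and 7 (without control 5). Over all genes, 237 calls in F1 became 852 in the joint fit and 97 without sample numbers 32 to 36, and 573 in F3 became 944 with DESeq2, 334 and 317. For F3 minus F1, 1 member passed by the likelihood ratio test, 1 by DESeq2 and 2 without sample numbers 32 to 36, and 0 to 2 with 1 library left out (2 without F1 sGC 4). For F2 minus F1 this range was also 0 to 2. Neither the labels nor the study's methods say whether replicate numbers pair the animals. Over 17 same-numbered pairs, correlations of deviations ran from -0.37 to 0.30, with 3 above 0.1. Such correlations cannot settle whether same-numbered animals shared a cohort or a processing step. With the replicate number as a block, 3 members were called in F1 (ZNF106, ZBTB44 and ZNF704), 0 in F3 and 0 in F2 minus F1, in fits with fewer libraries. No log2 value of a named gene that had passed the threshold changed sign, over 282 refitted values. Of 3161 refitted values of those that had not passed, 4.33% changed sign, such as ZNF462 in F3, from 0.02 to -0.02, and ZNF143 in F1, from -0.06 to 0.03, both without sample numbers 32 to 36. The cause of these differences was not tested. Log2 fold changes of genes with under about 50 mean reads have wide errors.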
